A study of Haematococcus lacustris with 7 samples.

Results

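The sequences described here are those of the *H. pluvialis* transcriptome assembly that were annotated as translation initiation, elongation or release factors. Members were chosen by the names of their Gene Ontology (GO) terms. A sequence was taken when a term name contained translation initiation factor, translational initiation, translation elongation factor, translational elongation, translation release factor or translational termination. Of the 195 sequences with such a term, 19 also listed structural constituent of ribosome and were left out, which gave 176 members of 6812 annotated sequences (2.58%). The members came from 164 Trinity components, the groups into which the assembler sorts overlapping reads, out of 6164 components in all. Cells of the alga were treated with jasmonic acid (JA) or salicylic acid (SA) at 25 mg/L for 1, 6 or 24 h, and untreated cells (N) served as the control. This gave 7 libraries, with 1 library per condition, all from aliquots of a single culture. The authors assembled the reads and deposited an annotation table for the assembly as a whole. It holds no value per library, so the levels of the members under JA, SA or no hormone, and the depth behind them, are not analysed here. Every value below is a complete count over this table. The counts have no replicate error, and no difference between sets of sequences was tested.

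Translation starts when initiation factors bring the initiator tRNA, the messenger RNA and the small ribosomal subunit together and the large subunit joins. Elongation factors then deliver each charged tRNA and move the ribosome along the message, and release factors recognise the stop codon and free the protein. Many of these proteins are GTPases that act as switches on the ribosome. In a green alga, proteins are made in the cytosol, the chloroplast and the mitochondrion, and the organelles use factors of a bacterial kind.

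The largest class was that of initiation, with 85 sequences in 78 components (48.3% of the members). Elongation terms were listed for 73 sequences in 68 components (41.5%), and termination terms for 25 sequences in 25 components (14.2%). Terms of a single class were listed for 82 initiation, 69 elongation and 21 termination sequences, and the other 4 members had terms of 2 or more classes. The terms that chose most members were translation initiation factor activity with 85 sequences, translation elongation factor activity with 72, translational elongation with 52, translational initiation with 38 and translational termination with 17. Codon-specific translation release factor activity was listed for 14 members and the general term translation release factor activity for 6, and 0 members listed both. Among the members, 174 had a factor activity term. The exceptions were comp54141_c0_seq1_22, with cytoplasm and translational termination alone, and comp54851_c1_seq1_3. This last sequence listed negative regulation of translational elongation with 7S RNA binding and the signal recognition particle, the complex that halts translation of secreted proteins until the ribosome reaches the membrane. It was the single member chosen through a regulation term alone.

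The name of the process was given at 1 of 2 levels. The general term translation was listed for 68 members, and a specific process term (translational initiation, elongation or termination) for 107, with 0 members listing both. The general term stood beside the factor activity in 47 of the 85 initiation sequences and in 20 of the 73 elongation sequences. In the termination class it was listed for 8 of the 25 sequences, of which 4 listed a release factor activity. The other 4 were the members with several classes, which are also counted in their other classes. The specific term translational initiation was listed for the other 38 initiation sequences. Over the table as a whole translation was listed for 515 sequences, and 433 of the 447 sequences outside the members listed structural constituent of ribosome as well.

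The classes differed in the nucleotide that their terms named. GTP binding was listed for 93 members (52.8%) in 82 components, against 297 of the 6636 other annotated sequences (4.48%). All 90 members with GTPase activity were among these 93. The members thus held 43.1% of the 209 sequences with GTPase activity in the table, and 23.8% of the 390 with GTP binding. By class, GTP binding was listed for 59 of 73 elongation sequences (80.8%), 28 of 85 initiation sequences (32.9%) and 6 of 25 termination sequences (24%). ATP binding was listed for 19 members (10.8%), against 1898 of the other sequences (28.6%). Of these 19, 15 were initiation and 4 elongation sequences. Neither nucleotide was named for 65 members, namely 42 initiation, 11 elongation and 19 termination sequences, where those with several classes are counted in each. The only member with both was comp603038_c0_seq1_3, an elongation sequence with mitochondrion, cell wall, zinc ion binding and response to cadmium ion.

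**Figure D1:**
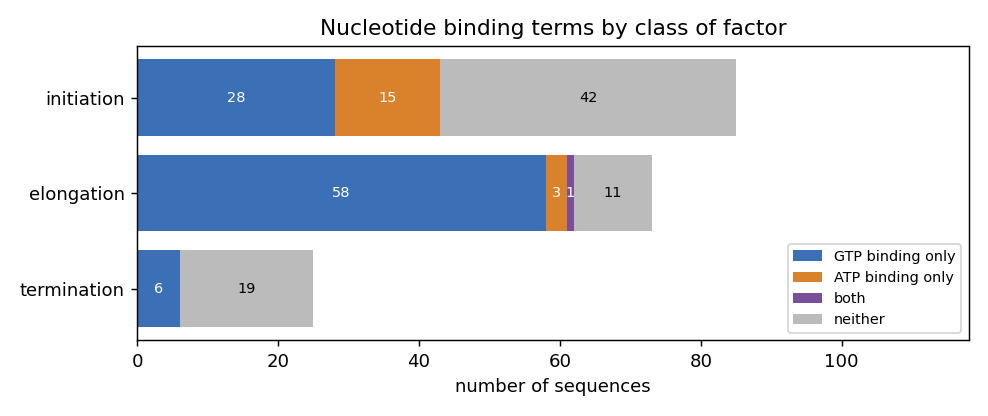
Number of sequences (x axis) in each class of factor (rows) that listed GTP binding only, ATP binding only, both or neither, with the counts in the bars. GTP binding fills most of the elongation row (58 alone and 1 with ATP binding), while neither was listed for 42 initiation and 19 termination sequences; the 4 members with several classes stand in each of their rows.

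Among the initiation sequences, the named complexes were those of eukaryotes. The eIF3 complex, a large scaffold that holds the small subunit and the message, was listed for 10 sequences in 10 components. All 10 also listed translational initiation, 5 listed nucleus, 3 listed cytosol and 0 listed GTP binding. Within these, 3 sequences (comp65777_c1_seq1_40, comp713367_c0_seq1_2 and comp810368_c0_seq1_4) had identical lists of 6 terms with cytosol, nucleus and protein binding. The sequences comp1316039_c0_seq1_2 and comp696041_c0_seq1_2 added regulation of translational initiation. The eIF2 complex, which brings the initiator tRNA to the ribosome, was listed for 5 sequences. Of these, 3 (comp1119010_c0_seq1_2, comp4465_c0_seq1_5 and comp452694_c0_seq1_9) had the same 8 terms, with regulation of translational initiation in response to osmotic stress and the G1/S transition checkpoint. These are the only 3 sequences of the table with either of these terms. The sequence comp421799_c0_seq1_6 was the eIF2 complex sequence with GTPase activity, and it also listed tRNA binding, the multi-eIF complex and positive regulation of translational fidelity.

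The eIF2B complex, the exchange factor that reloads eIF2 with GTP, was listed for 2 sequences. One of them, comp1021229_c0_seq1_4, listed the eIF2 complex too, together with protein amino acid autophosphorylation and regulation of translational initiation in response to stress. In yeast and animals, phosphorylation of eIF2 by stress-activated kinases holds back initiation. The other, comp47417_c0_seq1_34, listed GTP binding and a set of nematode terms such as nematode larval development and the molting cycle. The multi-eIF complex was listed for comp421799_c0_seq1_6 and for comp813201_c0_seq1_3, which also had GTPase activator activity, the function of eIF5 in triggering GTP hydrolysis by eIF2.

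A further set of initiation sequences carried ATP-dependent helicase activity, the function that eIF4A has in unwinding the leader of a message. It was listed for 14 sequences in 13 components, all with ATP binding and 12 with RNA binding. The helicase term was listed for 158 sequences of the table, so 8.86% of them were members. The largest group had 7 sequences with the same 6 terms and cytoplasm, among them comp1193382_c0_seq1_2 and comp612987_c0_seq1_4. A further 2 sequences (comp448595_c0_seq1_10 and comp56416_c0_seq1_26) had cytosol in place of cytoplasm. Mitochondrion was listed for 2 helicase sequences, comp64877_c0_seq36_10 and comp64877_c0_seq6_14, which belong to a single component and had no RNA binding. No sequence listed an eIF4F complex, and RNA cap binding was listed for 1 sequence outside the members. Poly(A) RNA binding, which marks the proteins that hold the tail of a message, was listed for 10 sequences, of which 0 were members. RNA binding as such was listed for 29 initiation sequences (34.1%), 7 elongation sequences (9.59%) and 4 termination sequences (16%), against 396 other sequences (5.97%). These 4 termination sequences were the members with terms of several classes and are also counted among the 7 elongation sequences. None of the 4 listed a release factor activity term.

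Ribosome assembly terms also occurred among the initiation sequences. Mature ribosome assembly was listed for 6 sequences of the table, all of them members. Of these, 4 (comp1228462_c0_seq1_1, comp541382_c0_seq1_3, comp62130_c3_seq2_11 and comp627312_c0_seq1_6) had the same 8 terms, which included nucleolus, ribosome binding and lamin filament. Lamin filament was listed for no other sequence, and lamins are proteins of the animal nucleus. The sequence comp1146038_c0_seq1_2 had 13 terms with export of ribosomal subunits, large subunit binding and rRNA maturation. In yeast and animals eIF6 binds the large subunit and keeps it from joining the small one too early. Mature ribosome assembly was also listed for comp813201_c0_seq1_3, the multi-eIF complex sequence with GTPase activator activity. The sequence comp1342036_c0_seq1_1 also had 13 terms, but mature ribosome assembly was not among them. It listed ATPase activity, iron-sulfur cluster binding, rRNA processing and ribosomal subunit export from nucleus. Ribosome binding was listed for 15 sequences of the table, and 9 of them (60%) were members.

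The 73 elongation sequences had 22 distinct lists of terms, the 25 termination sequences had 11 and the 85 initiation sequences had 42. The most frequent list of a class held 35.6% of the elongation sequences, 40% of the termination sequences and 8.24% of the initiation sequences. The most frequent list of all members, with 26 elongation sequences in 25 components, was GTP binding, GTPase activity, cytoplasm, translation elongation factor activity and translational elongation. The same list with mitochondrion in place of cytoplasm was found for 9 sequences in 5 components. With chloroplast it was found for 5 sequences in 5 components, and with cyanelle, the plastid of glaucophyte algae, for comp53799_c0_seq1_3. A list with the general term translation and cytoplasm was found for 7 sequences. The eEF1 complex, which delivers charged tRNA in the eukaryotic cytosol, was listed for 3 sequences (comp30945_c0_seq1_9, comp38079_c0_seq1_11 and comp483720_c0_seq1_20), and none of the 3 listed GTP binding. Plasma membrane stood beside it for comp38079_c0_seq1_11.

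ATPase activity was listed for 3 elongation sequences (comp28184_c0_seq1_2, comp40276_c0_seq1_6 and comp733439_c0_seq1_3), each with ATP binding, RNA binding and the general term translation. Fungi have an elongation factor that hydrolyses ATP, and its relatives are known from some algae. Actin binding was listed for 2 GTP-binding elongation sequences (comp1302499_c0_seq1_1 and comp931502_c0_seq1_5), and ribonucleoprotein complex for 2 others (comp19074_c0_seq1_11 and comp47338_c0_seq1_23).

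In the termination class, 10 sequences had the same 3 terms, cytoplasm, codon-specific translation release factor activity and translational termination. These were comp1555373_c0_seq1_6, comp30249_c0_seq1_12, comp58873_c0_seq1_9, comp59506_c1_seq1_21, comp685850_c0_seq1_10, comp736805_c0_seq1_4, comp808325_c0_seq1_8, comp815022_c0_seq1_4, comp817986_c0_seq1_2 and comp997542_c0_seq1_5. Factors of this kind read the stop codon. Plasma membrane was added for comp58159_c0_seq1_12 and comp863478_c0_seq1_3, and protein amino acid methylation for comp440571_c0_seq1_5. GTP binding and regulation of translational termination were added for comp62772_c0_seq2_16. The general release factor term stood with GTPase activity in 5 of its 6 sequences. Of these, 4 (comp1247030_c0_seq1_2, comp38401_c0_seq1_2, comp541500_c0_seq1_1 and comp695892_c0_seq1_2) had the same 8 terms, which included activation of caspase activity, protein ubiquitination and protein amino acid methylation. The other sequences were comp61391_c0_seq1_19, with cytoplasm, and comp1328226_c0_seq1_3, which listed no nucleotide. In eukaryotes a GTPase, eRF3, works beside the factor that reads the stop codon. Activation of caspase activity, a term of animal cell death, was listed for 5 sequences in the table, 4 of which were these members.

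The 4 members with several classes all listed hypusine formation, translational frameshifting, ribosome binding and RNA binding. Their termination term was positive regulation of translational termination, and none of them listed a release factor activity term. Hypusine is an amino acid made from a lysine of eIF5A, which helps the ribosome through stretches that are hard to translate. Initiation, elongation and termination terms were listed together for comp164642_c0_seq1_3, comp47892_c0_seq1_7 and comp169079_c0_seq1_4, the last with xylem development. The sequence comp105545_c0_seq1_2 lacked the initiation term and listed mitochondrion and cytosolic ribosome. Hypusine formation was listed for 11 sequences of the table, so 7 lay outside the members. Translational frameshifting was listed for these 4 alone.

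Location terms were transferred from matched proteins, and the place of the alga's own proteins was not tested. Cytoplasm was listed for 89 members (50.6%), against 1158 of the other annotated sequences (17.5%). It was listed for 44 elongation sequences (60.3%), 16 termination sequences (64%) and 29 initiation sequences (34.1%). A nuclear term (nucleus, nucleolus, lamin, chromatin, chromosome or preribosome) was listed for 19 members, all initiation sequences, and for 0 of the elongation and termination sequences. Among the other annotated sequences, 1318 (19.9%) had such a term, against 10.8% of the members. Cytosol terms were listed for 19 members (10.8%), 17 of them initiation sequences, and for 427 of the other sequences (6.43%). Mitochondrial terms were listed for 14 members (7.95%) in 9 components, and for 756 of the other sequences (11.4%). Of the 14 members, 11 were elongation sequences. Plastid terms were listed for 13 members (7.39%) in 9 components, 7 for initiation and 6 for elongation, and for 731 of the other sequences (11%). No termination sequence listed a plastid term, and 1 listed a mitochondrial term. This was comp105545_c0_seq1_2, a member of several classes with elongation factor activity and no release factor activity term. None of these places was listed for 36 members (20.5%), against 2925 of the other sequences (44.1%). Of the 36 members, 23 had no cellular component term.

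**Figure D2:**
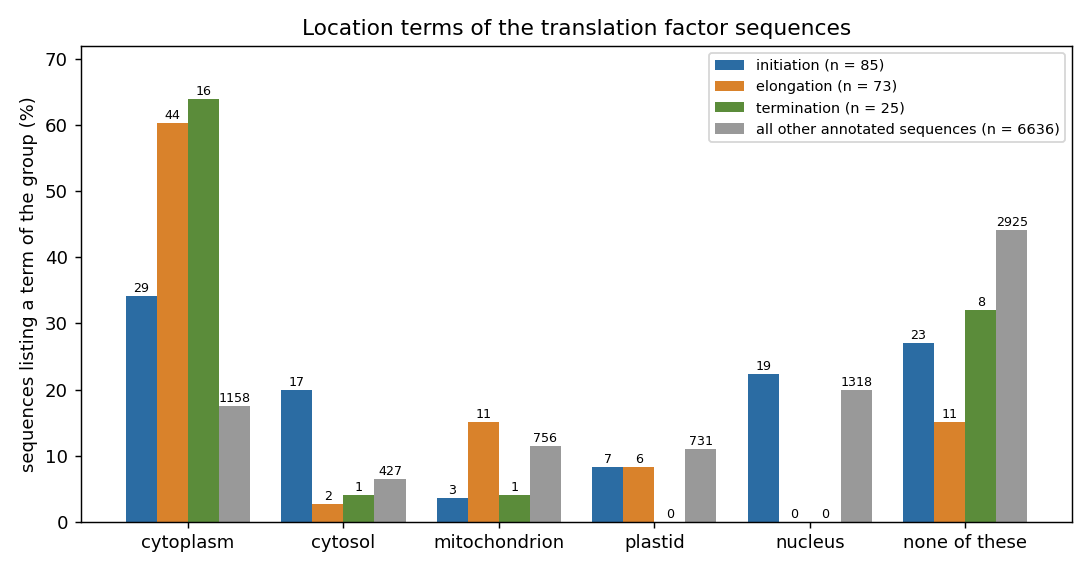
Share of sequences (y axis, %) in the initiation, elongation and termination classes and in all other annotated sequences that listed a term of each cell location (x axis), with the number of sequences over each bar. Cytoplasm has the tallest bars of the elongation (44 of 73) and termination (16 of 25) classes, and the nucleus group holds initiation sequences (19 of 85) but none of the other classes.

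Several organelle counts rested on sequences of a single component. Of the 164 components, 159 held 1 member and 5 held 2 or more, with 17 members between them. In comp65056_c1 there were 6 initiation sequences with GTP binding and GTPase activity. Chloroplast envelope was listed for 5 of them, and these were the only members with that term. The sixth, comp65056_c1_seq17_37, listed cytoplasm. In comp65221_c1 there were 5 elongation sequences with GTP binding and mitochondrion, all with the same terms. The components comp59196_c0 and comp64877_c0 held 2 members each with identical terms. The 2 members of comp64193_c1 shared GTPase activity and translation, but comp64193_c1_seq2_12 listed cytosol and comp64193_c1_seq4_6 listed cytoplasm and protein binding. Annotated sequences of these 5 components were all members.

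Sets of terms were repeated among the members, for most lists across components. The 176 members had 70 distinct lists of terms, and 32 of the lists were found for 2 or more members, 138 members in all (78.4%). Among these, the chloroplast envelope list of comp65056_c1 (5 members) and the list of comp64877_c0 (2 members) were each confined to 1 component. The matching share over all annotated sequences is not given here. A member had a median of 5 terms (quartiles 4 and 6, range 2 to 13), against a median of 5 (quartiles 4 and 7) for the other sequences. In all, the members listed 103 distinct terms, of which 18 had chosen them and 36 were on 1 member. Of the terms that had not chosen them, 8 were listed for members alone. Terms of all 3 GO domains were listed for 152 members (86.4%), against 4923 of the other sequences (74.2%). Most choosing terms are function or process terms, so this contrast follows in part from the choice. A process term was listed for 176 members and a function term for 175. No cellular component term was listed for 13.1% of the members and 16.5% of the other sequences.

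**Figure D3:**
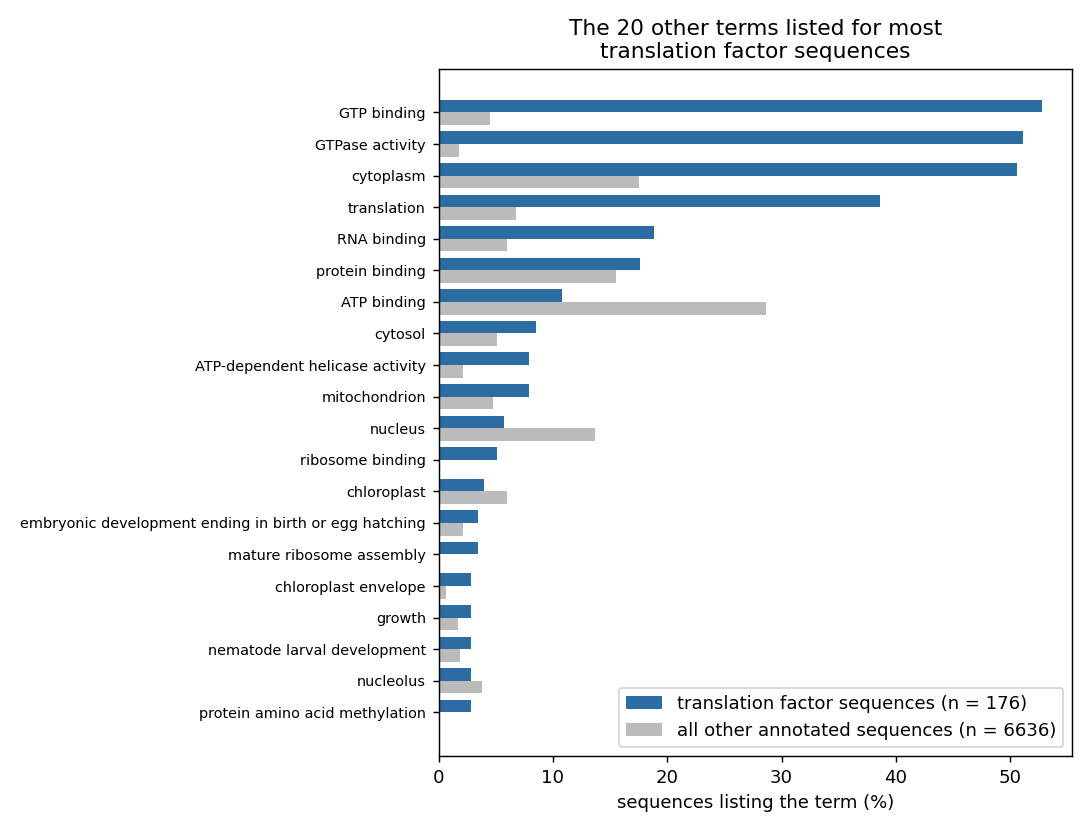
The 20 terms, other than those that chose the members, that were listed for most members (rows), with the share of the 176 translation factor sequences above the share of all other annotated sequences (x axis, %). GTP binding (52.8%), GTPase activity (51.1%) and cytoplasm (50.6%) head the list, and ATP binding is lower in the members (10.8%) than in the other sequences (28.6%).

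The 7 members with 13 terms were the longest lists, and 4 of them were alike. These 4 initiation sequences, comp1017082_c0_seq1_1, comp11215_c0_seq1_8, comp1411311_c0_seq1_1 and comp61159_c0_seq1_30, joined GTPase activity and translation initiation factor activity to terms of heterochromatin. They listed histone H3-K9 methylation, DNA methylation, chromatin silencing at centromere and at telomere, and oogenesis. Histone H3-K9 methylation was listed for 5 sequences of the table, 4 of which were these members. In *Drosophila* the eIF2 gamma subunit and a histone H3-K9 methyltransferase are products of a shared gene locus. The table does not give the reference protein from which a term was taken. The remaining lists of 13 terms were those of comp1146038_c0_seq1_2 and comp1342036_c0_seq1_1 and of comp757699_c0_seq1_8, a helicase sequence with determination of adult lifespan, lipid storage and nematode larval development.

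Terms for animal bodies (such as nematode larval development, locomotion, oogenesis or the molting cycle) were listed for 10 members (5.68%), against 233 of the other sequences (3.51%). Among them were 3 elongation sequences with GTP binding (comp35003_c0_seq1_41, comp483403_c0_seq1_9 and comp690442_c0_seq1_3), which had the same 12 terms. Term names containing a hormone word (such as jasmonic, salicylic, ethylene or hormone) were listed for 0 members and for 108 other sequences (1.63%). These words were also matched inside longer words, such as methylene, so the 108 can include terms that name no plant hormone. Terms for a response or for stress were listed for 6 members (3.41%) and 540 other sequences (8.14%). Of the 6, 4 were initiation sequences with the stress terms of the eIF2 complex given above. Those stress terms name translational initiation and are themselves choosing terms, so these 4 are not independent of the rule. The 2 elongation sequences listed response to cadmium ion or response to bacterium.

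Terms of several other parts of the translation apparatus were listed mainly for sequences outside the members. Terms of tRNA aminoacylation, the charging of tRNA with its amino acid, were listed for 160 sequences, of which 0 were members. These were 2.41% of the other sequences. A term naming tRNA was listed for 1 member (0.568%) and 260 other sequences (3.92%). Regulation of translation was listed for 4 members and 27 other sequences, but its share was higher in the members (2.27% against 0.407%). No sequence of the table listed ribosome recycling, the step that splits the ribosome after release. The 19 sequences left out for their ribosome term listed translational elongation (17), translational initiation (3) or translational termination (1), with comp31104_c0_seq1_4 and comp53798_c0_seq1_6 listing both elongation and initiation. None of the 19 had a factor activity term.

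Each identifier holds a Trinity component number and ends in a number called here the reading frame number. It was read as a running number of the frames taken from a contig, which no label describes. It reached 54 in the members and 197 over all annotated sequences, so it is not the frame of translation itself. The members were divided at component number 100000, a boundary chosen from earlier results of these data. Of the members, 104 (59.1%) had a number above 100000 and 72 a lower one, compared with 3325 (50.1%) and 3311 of the other sequences. The share above was 61.2% for initiation, 56.2% for elongation and 64% for termination, and 26.3% for the 19 ribosomal sequences left out. The median reading frame number of the members was 4 above and 12 below, compared with 3 and 13 for the other sequences. Of the 32 lists of terms found for 2 or more members, 24 occurred on both sides, such as the most frequent elongation list with 16 sequences above and 10 below. The cytoplasmic helicase list had all 7 sequences above. Plastid terms were listed for 4 members above and 9 below, in 4 and 5 components, since 5 of those below belong to comp65056_c1. Of all annotated sequences, plastid terms were listed for 202 above and 542 below. Mitochondrial terms were listed for 6 members above and 8 below, in 6 and 3 components, and for 445 and 325 of all annotated sequences. Cytoplasm was listed for 56 members above and 33 below, and for 694 and 553 of all annotated sequences. What sets the component number was not tested.

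**Figure D4:**
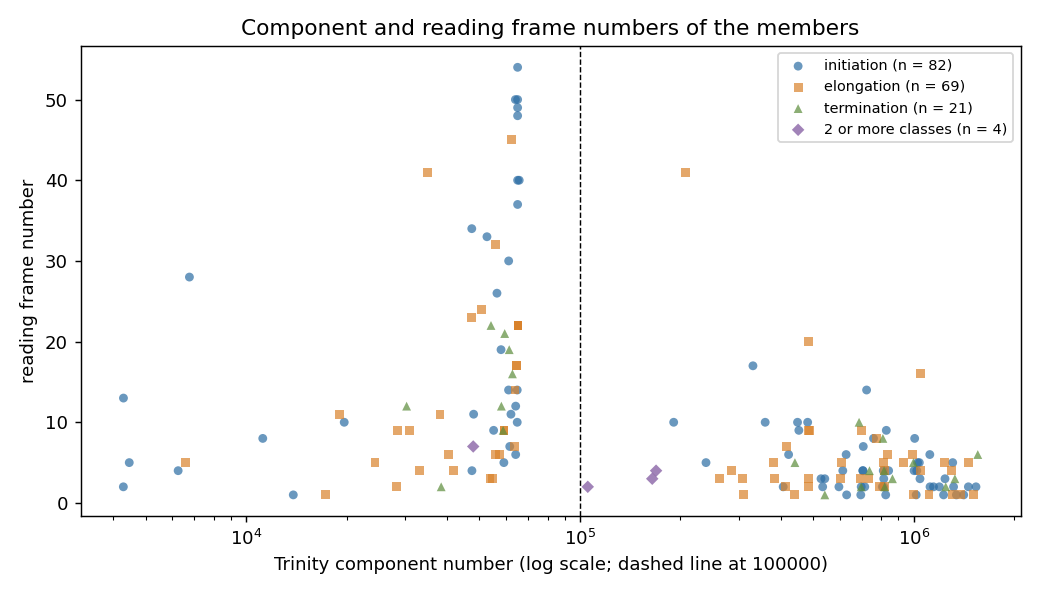
Trinity component number (x axis, log scale) and reading frame number, the last number of the identifier (y axis), of each of the 176 members. There is 1 point per sequence with a marker for its class, and the dashed line stands at 100000. Points to the right of the line are more numerous (104 against 72) and lie at lower reading frame numbers (median 4 against 12).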

How the data were processed

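Per the labels, RNA was sequenced in 7 libraries, 1 per condition. After quality filtering, the authors joined the reads of the libraries into contigs (Trinity), took reading frames from these (GetORF), compared them with known proteins (Blastp) and gave them GO terms (GoPipe). The deposited table has 4 text columns (sequence identifier, GO identifier, term name and domain) in 39529 lines, and 0 columns hold values per sample. Terms were transferred by similarity, so a term describes the matched protein, and a parent term is often not listed beside its specific term.

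Sequences were counted by identifier, a component being the part of the identifier before the sequence number. Members and classes were found by the term names given at the opening of the results. Location and function groups were found by words in term names. The members and lists were chosen with earlier results of these data known. Named are the terms that chose members, the 20 other terms on most members, members with most terms, termination members, members of several classes, shared components and up to 5 members per factor list. Lists in which all sequences share their terms are given whole or by examples. The choice of members was tested on simulated data. The RefSeq gene table of the species, with 30548 genes, matched 0 identifiers, and neither gene names nor sequences were added. A count within 1.5 times was taken as the same, and a share when it lay within the 95% exact binomial interval. The interval served only as a tolerance, since sequences of 1 assembly are not replicates. Counts were made in Python 3.11.15 with NumPy 2.4.6, intervals with SciPy 1.17.1, and plots with Matplotlib 3.10.9.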

Additional observations from a re-analysis of the deposited data

How the results depend on the processing

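Under 32 alternatives for 11 results, 26 values stayed within the limits set and 6 moved. No result has a direction or a test, so none could reverse. With process terms only, the members became 117 and the initiation sequences 43, regulation terms included. The sequences lost list the general term translation in place of the specific one. With the term of that name alone, the members with a plastid term became 7 and those with a nuclear term 10, since chloroplast envelope, cyanelle, nucleolus and chromatin terms drop out. With 1 count per Trinity component, the members with a mitochondrial term became 9, because 5 of the 14 belong to comp65221_c1 and 2 to comp64877_c0. Without the terms that chose the member, the median number of terms was 3. The share of members with GTP binding was 50% with 1 count per component. The share above component number 100000 was 59.1% with the boundary at 80000, 56.8% at 200000 and 63.4% with 1 count per component. Keeping the sequences with structural constituent of ribosome gave 195 members, of which 90 had an elongation term. No paired analysis was possible because the table pools the libraries and holds no values per sample, and values per sample of the members were not run for the same reason. The table gives no sequencing depth, and how depth bears on the factors assembled was not tested.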
